A study of Mus musculus with 2 samples.

Results

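Areg and Hbegf encode amphiregulin and heparin-binding EGF-like growth factor, 2 members of the EGF family of growth factors, and they are 2 of the 32228 genes counted in these libraries. They were taken as a pair because both are ligands by which immune cells can act on a damaged epithelium. Each was followed in 20 classes of barcode, which were set by marker genes that include neither of them.

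Cells came from the colonic lamina propria of C57BL/6 mice aged 8-10 weeks that had received dextran sulfate sodium (DSS), a detergent-like polysaccharide that injures the colonic epithelium, in drinking water. The study's methods describe sex-matched littermates. Live CD45+ cells were sorted, those of 5 mice were pooled per library, and by label 1 library was made from WT mice and 1 from Ring1AKO mice. The study describes the Ring1AKO mice as lacking the Polycomb protein Ring1A in the whole body. Both groups thus share the DSS treatment, and neither has an untreated counterpart here. They need not share the degree of injury. The study reports more severe DSS colitis in Ring1AKO mice, and gut bacteria that differed from those of WT mice before DSS. A 3′ droplet assay counted unique molecular identifiers (UMIs), each standing for 1 captured transcript.

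With 1 library per genotype there is no replicate. Genotype, the degree of injury, the gut bacteria, the pool of mice and the library preparation cannot be told apart. No test was made between the libraries, and the 95% intervals given are exact ones for counting error only. Fewer cells expressing a gene and less RNA per cell were separated only as far as the share of barcodes with a UMI allows. Ring1, the targeted gene, was counted at 828 UMIs under the label WT and at 816 under Ring1AKO. Scaled to library total (CPM), these were 13.4 (12.5 to 14.3) and 11.8 (11 to 12.7). The sources used here do not give the deleted part of the gene, and a 3′ tag may lie outside it, so these counts are no check of the label, and every direction given is between libraries as labelled.

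Barcodes with at least 1000 UMIs, at least 500 genes and under 5% mitochondrial UMIs numbered 6005 labelled WT and 7918 labelled Ring1AKO, with medians of 6354 and 5035 UMIs. They held 61864835 and 69029466 UMIs, and 11 barcode sequences occurred in both libraries. B cells made up 20.1% of the barcodes labelled WT and 46.1% of those labelled Ring1AKO, and monocytes 12.9% and 3.38%. Not all markers that did not set a class stood above the B gate. The Treg gate, set by Foxp3, had the checkpoint receptor Ctla4 at 2935 and 2828 CPM against 24.5 and 24.4 in the B gate, and the ILC2 gate had Klrg1 at 172 and 175 CPM against 0.61 and 1.5. In the Th17 gate, set by Il17a and Il17f, Ccr6 was at 86.9 and 109 CPM against 89.7 and 77.6. In the class of Krt8, collagen and Cdh5, Pecam1 was at 52.4 and 44.7 CPM against 108 and 71.9. The monocyte gate took all myeloid barcodes that were neither macrophage, dendritic cell nor neutrophil. Its monocyte gene Ly6c2 was at 1201 CPM labelled WT and 291 labelled Ring1AKO, against 22.9 and 20.7 in the B gate. Over all barcodes it was at 1188 and 647, so the gate stood above B cells but was not rich in Ly6c2 beside all barcodes. Another monocyte gene, Ccr2, was at 518 and 232 CPM against 150 and 53.9 over all barcodes. By Epx alone, eosinophils were not seen among the barcodes kept of either library. Their other listed markers are not given here, and no class was set for them.

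EGF-family ligands are made as membrane proteins, are cut free by the protease Adam17 with its iRhom partners Rhbdf1 and Rhbdf2, and signal through Egfr and its relatives on epithelial and stromal cells. Amphiregulin is the ligand best known from group 2 innate lymphoid cells (ILC2) and from Foxp3+ regulatory T cells (Treg) resident in tissue, where IL-33 acting on its receptor Il1rl1 and IL-18 acting on Il18r1 can induce it without the T-cell receptor. Hbegf is known from macrophages and also binds heparan sulfate and CD9. Both genes are switched on quickly by signals that raise cyclic AMP, such as prostaglandin E2 at Ptger2 and Ptger4 or adenosine at Adora2a, and by growth factor signals.

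Areg (ENSMUSG00000029378) lies on the forward strand at chr5:91139599-91148432 of GRCm38 as a protein-coding gene of GENCODE vM21. The window from 250 bases before to 50 bases after the start of Areg in RefSeq (GRCm38.p6, chr5:91139349-91139648, forward strand) is shown because cyclic AMP receptors were among the genes followed beside it. Capitals mark the cyclic AMP response element TGACGTCA, which is its own reverse complement and starts 61 bases before the gene, and the TATA box TATAAAA, which starts 31 bases before it.

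Areg promoter: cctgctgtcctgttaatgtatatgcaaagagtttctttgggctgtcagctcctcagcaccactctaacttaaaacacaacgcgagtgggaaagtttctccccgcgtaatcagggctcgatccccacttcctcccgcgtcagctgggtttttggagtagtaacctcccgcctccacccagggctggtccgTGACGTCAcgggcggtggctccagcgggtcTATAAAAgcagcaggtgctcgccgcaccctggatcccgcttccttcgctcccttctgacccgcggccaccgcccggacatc

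TGACGTCA occurs on either strand in 1.79% of the 32851 promoter windows of the same length, and TATAAAA in 5.48%. The AP-1 motif TGANTCA, held by 7.81% of the windows, has no match in that of Areg on either strand. These matches describe letters and were not tested for binding.

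ILC2 had the highest Areg level in both libraries. The 199 ILC2 barcodes labelled WT held 1559 Areg UMIs, or 1524 CPM (1449 to 1601), and the 116 labelled Ring1AKO held 729, or 1204 CPM (1118 to 1294). Areg was thus lower in ILC2 labelled Ring1AKO with a log2 ratio of -0.34 (-0.47 to -0.21), which placed it at the 28.4th percentile of the 2195 genes with at least 100 UMIs in that gate. Nearly the same share of ILC2 had any Areg UMI, 63.8% labelled WT and 61.2% labelled Ring1AKO, or 45.2% (38.2 to 52.4) and 42.2% (33.1 to 51.8) after every barcode was thinned to 1000 UMIs. The median ILC2 with any Areg held 7 Areg UMIs labelled WT and 4 labelled Ring1AKO.

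Treg came next. Their 209 barcodes labelled WT held 1450 Areg UMIs, or 1013 CPM (962 to 1067), and 227 labelled Ring1AKO held 1507, or 660 CPM (627 to 694). The log2 ratio of -0.62 (-0.72 to -0.51) was past the 1.5-fold limit used here as a rule of size, as were 19.4% of all 4662 genes of at least 100 UMIs in that gate in the same direction. After thinning, 34.0% of Treg labelled WT (27.6 to 40.8) and 28.2% of Treg labelled Ring1AKO (22.4 to 34.5) had an Areg UMI, and these intervals overlapped. Without barcodes of 4000 or more genes the log2 ratio was -0.42, and with a second Foxp3 UMI required and every other marker threshold raised by 1 UMI it was -0.79.

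**Figure D1:**
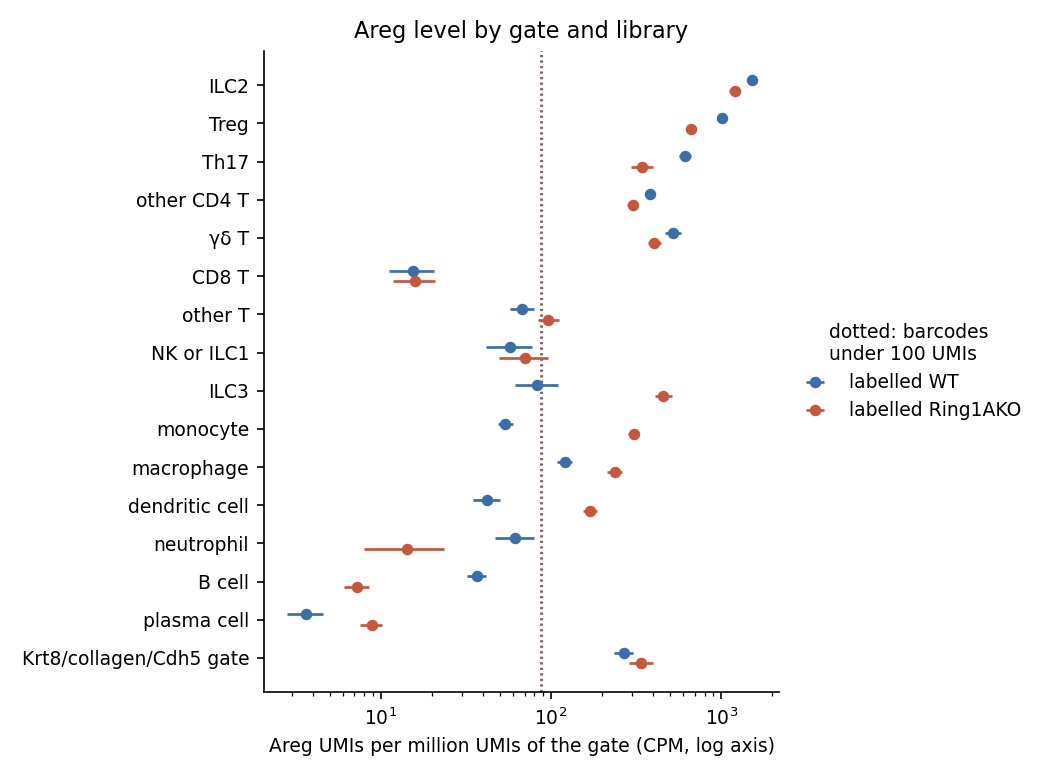
Areg level in 16 classes of barcode, in CPM on a log axis, labelled WT in blue and labelled Ring1AKO in red, with exact Poisson 95% intervals. Dotted lines mark Areg in barcodes under 100 UMIs, at 88.6 and 87.2 CPM. ILC2 and Treg stand highest in both libraries, and monocytes, macrophages and dendritic cells stand higher in the library labelled Ring1AKO.

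Other T cells spread widely and a few barcodes carried much of their Areg. Th17 cells, set by Il17a and Il17f, had 611 CPM (563 to 663) in 115 barcodes labelled WT and 344 CPM (294 to 399) in 55 labelled Ring1AKO. The log2 ratio was -0.83 (-1.09 to -0.58), in a gate where 15.7% of 2084 genes were at least 1.5-fold lower. This gate required no CD4 marker. T cells without CD4, γδ T cells with under 2 Trdc UMIs among them, can therefore lie in it. A single barcode held 277 of the 591 Th17 Areg UMIs labelled WT and another 80 of the 170 labelled Ring1AKO. Without these, Th17 levels were 327 and 188 CPM, and with stricter marker thresholds the log2 ratio was -1.86. CD4 T cells outside the Treg and Th17 gates had 383 CPM (360 to 406) and 302 CPM (281 to 324). Their log2 ratio of -0.34 turned to 0.21 under the stricter marker thresholds and to 0.072 with clusters as classes.

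Among γδ T cells the level and the share of barcodes did not move together. Areg was at 523 CPM (469 to 581) labelled WT and 405 CPM (371 to 441) labelled Ring1AKO, while 7 of 92 and 29 of 187 barcodes had any. By clusters, γδ T cells were not alike. Of those named γδ T, 1 held 343 and 503 Areg UMIs in 32 and 92 barcodes, and another 0 and 3 in 29 and 96. Of the 344 Areg UMIs in γδ T cells labelled WT, 140 lay in 1 barcode and 122 in another. Without the top barcode of each library the levels were 322 and 319 CPM, and the level labelled WT still included the barcode with 122. The log2 ratio of -0.37 (-0.57 to -0.17) turned to 0.37 without barcodes of 4000 or more genes and to 0.67 as a mean of barcode CPM. CD8 T cells had little, 15.4 CPM (11.2 to 20.6) and 15.9 CPM (11.8 to 21.0). NK cells or ILC1 had 57.3 and 70.1 CPM.

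Rare granulocytes added almost nothing to Areg. The mast cell gate held 1 barcode labelled WT, with no Areg UMI, and 22 labelled Ring1AKO, with 2 Areg UMIs in 1 of them. Of 12 basophils labelled WT, 2 had an Areg UMI, with 3 UMIs in all, and the 10 labelled Ring1AKO had 0, which allows up to 20.4 CPM by the limit of 3 counts. Neutrophils had 61.4 CPM (46.7 to 79.2) and 14.3 CPM (8.0 to 23.6), from 7 and 5 positive barcodes, and without the top barcode of each library 37.7 and 3.84 CPM. T cells with neither CD4, CD8 nor γδ markers had 67.5 CPM (57.2 to 79.1) and 96.6 CPM (83.4 to 111), or 36.1 and 71.5 CPM without the top barcodes.

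**Figure D2:**
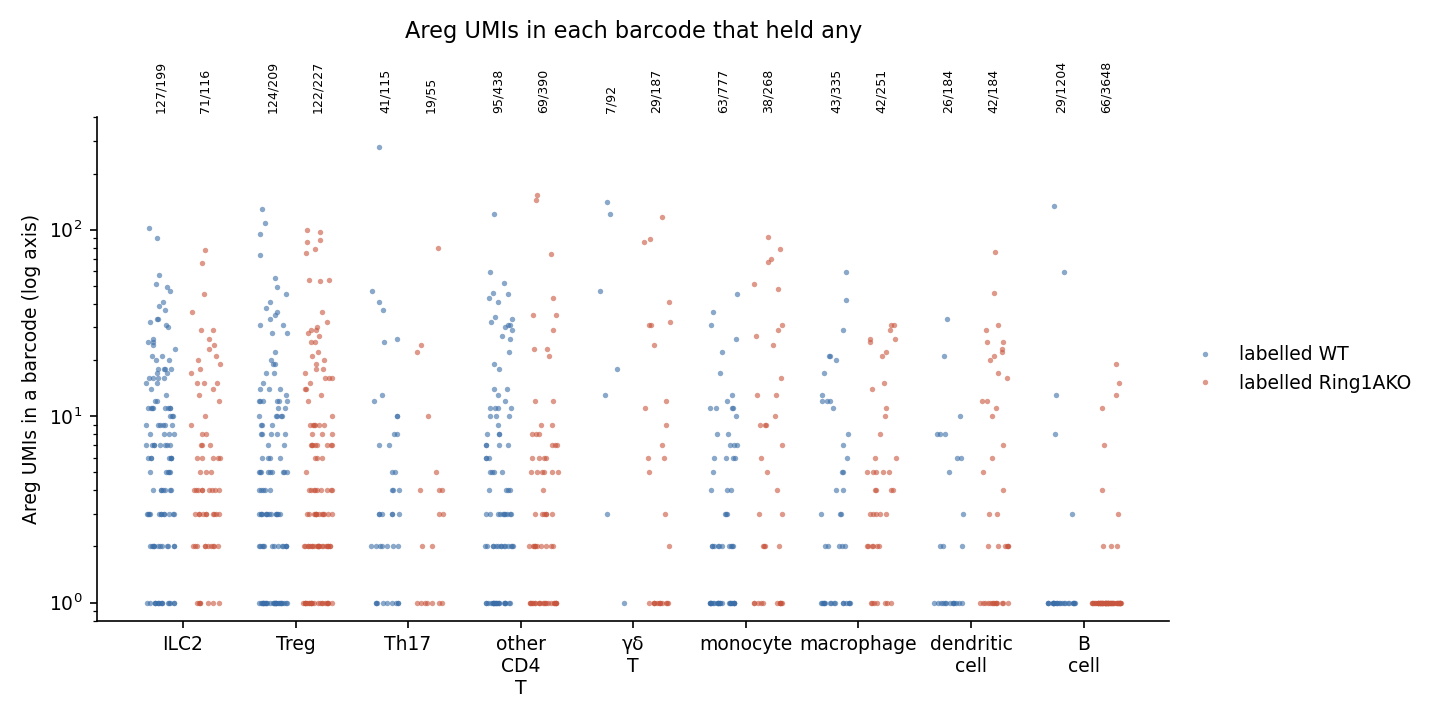
Areg UMIs in each barcode that had any, on a log axis, in 9 classes, labelled WT in blue and labelled Ring1AKO in red. Numbers above give barcodes with Areg over barcodes of the class, from 127 of 199 ILC2 to 29 of 1204 B cells, both labelled WT. A few points stand far above the rest in Th17, γδ T and B cells.

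In 3 myeloid classes the direction was opposite to that in ILC2 and Treg. Monocytes had 53.9 CPM (48.7 to 59.6) in 777 barcodes labelled WT and 305 CPM (282 to 330) in 268 labelled Ring1AKO, a log2 ratio of 2.5 (2.32 to 2.69). In that gate 4.79% of 6225 genes were at least 1.5-fold higher, and Areg stood at the 99.95th percentile of them. The share of monocytes with Areg after thinning was 2.96% (1.89 to 4.41) and 6.72% (4.03 to 10.4), with overlapping intervals.

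Macrophages, set by the complement genes C1qa, C1qb and C1qc, had 120 CPM (108 to 134) and 237 CPM (213 to 263) of Areg, a log2 ratio of 0.98 (0.76 to 1.2), with 6.10% of 4521 genes at least 1.5-fold higher. Their positive share after thinning was 4.18% (2.30 to 6.91) labelled WT and 10.4% (6.88 to 14.8) labelled Ring1AKO, whose intervals just overlapped. Dendritic cells had 41.9 CPM (34.9 to 49.9) and 169 CPM (154 to 186) in 184 barcodes each, a log2 ratio of 2.01 (1.73 to 2.31), with 3.54% of 5390 genes at least 1.5-fold higher. After thinning 2.17% (0.60 to 5.47) and 8.70% (5.05 to 13.7) of dendritic cells had Areg, again with overlapping intervals. With clusters as classes the log2 ratio was 0.37 in macrophages and turned to -0.24 in dendritic cells. The cluster with most Areg of the dendritic gate then stayed unnamed. A cluster led by Cst3, Xcr1 and Naaa, named dendritic, held 146 Areg UMIs labelled WT, 4 of them in barcodes of the dendritic gate. Labelled Ring1AKO it held 38, with 37 of them in that gate.

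UMIs of ILC2 and T-cell markers were counted in the myeloid barcodes rich in Areg, in gates from which barcodes over the T-cell threshold had already been set aside. Of the 23 monocytes labelled WT with 5 or more Areg UMIs, 1 had a UMI of Cd3d, Cd3e or Cd3g and 0 had one of Il1rl1, Il17rb, Il5, Il13, Calca or Gata3, and all 23 had Lyz2. Among the 20 labelled Ring1AKO these counts were 1, 1 and 20. The median depth of the Areg-rich monocytes was 10581 and 10890.5 UMIs, against 9582.5 and 7389 in monocytes with no Areg, of which 37 of 714 and 13 of 230 had a Cd3 UMI. For macrophages with 5 or more Areg UMIs, a Cd3 UMI was seen in 1 of 17 and 0 of 20, and an ILC2 marker in 3 and 0. In macrophages with no Areg an ILC2 marker was seen in 11 of 292 and 12 of 209, so its share was higher in the Areg-rich ones labelled WT. Of dendritic cells with 5 or more Areg UMIs, 1 of 9 and 2 of 19 had a Cd3 UMI and 1 and 0 an ILC2 marker, against 5 of 158 and 12 of 142 and against 7 and 9 of those with no Areg.

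The monocyte gate was not made up alike in the libraries. Clustering of all barcodes without Areg and Hbegf, named here by leading genes, put 319 monocytes labelled WT and 4 labelled Ring1AKO into a cluster led by Cxcl9, Gbp2 and Calhm6, genes induced by interferon. Areg differed also within clusters that both libraries filled. In a cluster led by Saa3, Inhba and Il1a, 89 monocytes labelled WT held 17 Areg UMIs (21.7 CPM) in 5 barcodes and 89 labelled Ring1AKO held 350 (526 CPM) in 19. In one led by Chil3, Lyz2 and Vcan, 301 and 127 monocytes had 38.8 and 169 CPM, from 18 and 13 positive barcodes. Most dendritic cell Areg came from a cluster led by Cd209a, Clec10a and Tnip3, where 67 barcodes labelled WT had 125 CPM and 61 labelled Ring1AKO had 479 CPM, with Areg in 14 and 28 of them. That cluster also took 30 and 10 barcodes of the monocyte gate, with 84 of the 387 and 104 of the 643 Areg UMIs of that gate. The macrophage gate was also made up unevenly. Of 335 macrophages labelled WT, 107 fell into the Cxcl9 cluster with 185 of the 343 Areg UMIs, against 2 of 251 labelled Ring1AKO with 0. In a cluster led by C1qa, C1qb and C1qc that both filled, 96 and 112 macrophages had 119 and 199 CPM. In another that both filled, led by Ccl8, C1qa and C1qc, 75 and 70 macrophages held 0 and 1 Areg UMIs. Clusters were made after the levels by gate had been seen.

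Myeloid Areg was split by 8 genes chosen after the values were seen. Of these, Il1b, the cytokine IL-1β, and Thbs1, the matrix protein thrombospondin-1, are given. The cytokine Tnf is given for monocytes and macrophages, and the chemokine Ccl4 for monocytes. All 5 Areg UMIs of thinned dendritic cells labelled WT lay in the 96 barcodes with an Il1b UMI, at 52.1 CPM (16.9 to 122) against 0 (0 to 41.9), where the intervals overlapped, and 36 of 43 labelled Ring1AKO lay in the 98 such barcodes, at 367 CPM (257 to 509) against 81.4 CPM (32.7 to 168) in the other 86. Macrophages without Il1b, 44 and 39 barcodes, had no Areg UMI after thinning, against 92.8 CPM (61.1 to 135) and 236 CPM (175 to 311) with it, and the interval of the former overlapped that of 0 (0 to 83.8). Il1b was found in 729 of 777 and 252 of 268 monocytes, so the gene divided them little. Monocytes with Thbs1 had 73.0 CPM (53.0 to 98.0) against 11.5 CPM (1.4 to 41.5) labelled WT and 239 CPM (179 to 312) against 47.6 CPM (5.8 to 172) labelled Ring1AKO. Areg was in 21 of 603 and 17 of 226 monocytes with Thbs1, against 2 of 174 and 1 of 42 without. Split by Tnf, monocytes had 157 against 44.4 CPM labelled WT and 537 against 150 CPM labelled Ring1AKO, with intervals apart. The levels with Tnf came from 6 of 102 and 5 of 41 barcodes. Macrophages did not share this split in both libraries. They had 137 against 64.9 CPM labelled WT and 185 against 204 CPM labelled Ring1AKO, with overlapping intervals. Split by Ccl4, the direction in monocytes differed between libraries, with 110 against 38.3 CPM labelled WT and 181 against 227 CPM labelled Ring1AKO. In macrophages the Thbs1 split gave 108 against 47.0 CPM and 255 against 118 CPM, with overlapping intervals. By the share of barcodes with an Areg UMI, the intervals overlapped in every split given here.

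ILC3 and B cells show how far 1 barcode can reach. ILC3 had 83.3 CPM (61.4 to 110) labelled WT and 457 CPM (407 to 511) labelled Ring1AKO, a log2 ratio of 2.46 where 6.54% of 1956 genes were at least 1.5-fold higher, but 1 barcode held 209 of the 306 Areg UMIs labelled Ring1AKO. Without the top barcode of each library the levels were 44.2 and 147 CPM, a log2 ratio of 1.74. B cells, which are not known as a source of Areg, had 36.7 CPM (32.2 to 41.7) and 7.2 CPM (6.1 to 8.6), with 134 of the 241 UMIs labelled WT in 1 barcode and 16.4 and 6.2 CPM without the top barcodes. The thinned positive share of B cells, 1.00% (0.52 to 1.73) and 0.52% (0.31 to 0.81) at median depths of 4195 and 4322 UMIs, serves as the background for the shares above. Of B cells with 5 or more Areg UMIs, 3 of 4 labelled WT and 3 of 5 labelled Ring1AKO had an ILC2 marker counted above. Of those with no Areg, 24 of 1175 and 99 of 3582 had one. Median depths were 11029.5 and 12848 UMIs against 4182 and 4319. Whether the Areg-rich ones were doublets was not tested.

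Cell-free RNA held Areg at nearly the same level in both libraries, 88.6 CPM (82.8 to 94.7) and 87.2 CPM (81.1 to 93.6) in barcodes under 100 UMIs. By Jchain and Igkc in T cells, cell-free RNA made up 2.46% of the UMIs of a T barcode labelled WT and 3.19% of one labelled Ring1AKO. With that share subtracted the log2 ratio in monocytes stayed within its interval.

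**Figure D3:**
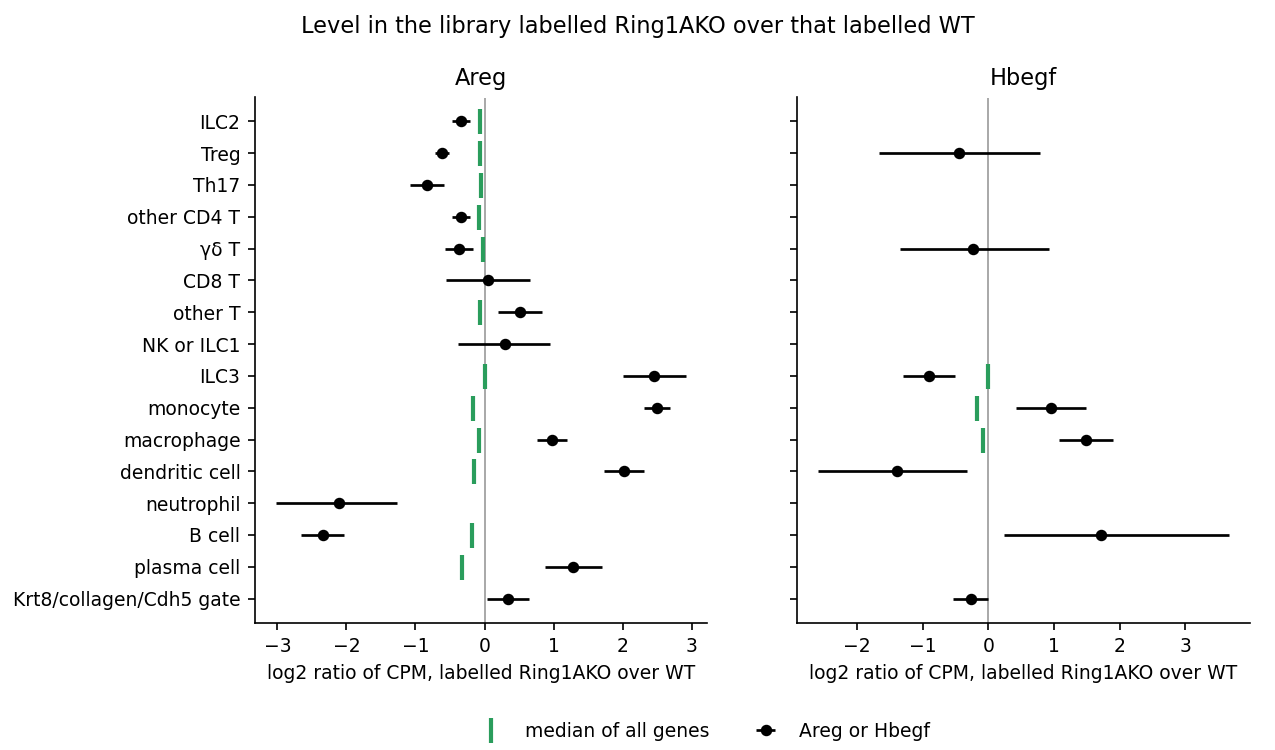
Log2 ratio of the level, Ring1AKO over WT as labelled, for Areg (left) and Hbegf (right) by class, with exact 95% counting intervals, where at least 20 UMIs were counted. Green ticks mark the median of all genes of at least 100 UMIs in gates where the member also reached that number. Areg is at -0.34 in ILC2 and -0.62 in Treg but 2.5 in monocytes, and Hbegf is at -0.90 in ILC3 and 1.48 in macrophages.

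Over all barcodes Areg was at 120 CPM (117 to 122) labelled WT and 100.2 CPM (97.9 to 103) labelled Ring1AKO, a log2 ratio of -0.26 (-0.30 to -0.21). This library-wide value is the sum over classes of the class size times the level in it. With the WT levels kept and the class sizes taken from the library labelled Ring1AKO, the log2 ratio was -0.14, and with the class sizes kept and the levels exchanged it was 0.24. After the first of these steps, exchanging the levels at the Ring1AKO class sizes gave the remaining -0.12. After the second, exchanging the class sizes at the Ring1AKO levels gave the remaining -0.50. Each first step and its remainder make up the whole, whereas -0.14 and 0.24 together do not. The sign of the level part thus depended on the order. Without the B and plasma gates Areg was at 197 and 223 CPM, a log2 ratio of 0.17 (0.13 to 0.22).

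The sources of the Areg UMIs differed between the libraries. ILC2 held 21.1% of all Areg UMIs labelled WT and 10.5% of those labelled Ring1AKO, in 3.31% and 1.47% of the barcodes. Treg held 19.6% and 21.8%, in 3.48% and 2.87% of the barcodes. Monocytes, macrophages and dendritic cells together held 11.6% (10.9 to 12.3) labelled WT and 20.9% (20 to 21.9) labelled Ring1AKO, although they made up 21.6% and 8.88% of the barcodes. ILC2, Treg, Th17, other CD4 and γδ T cells together held 67.6% (66.5 to 68.7) and 53.7% (52.5 to 54.9).

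**Figure D4:**
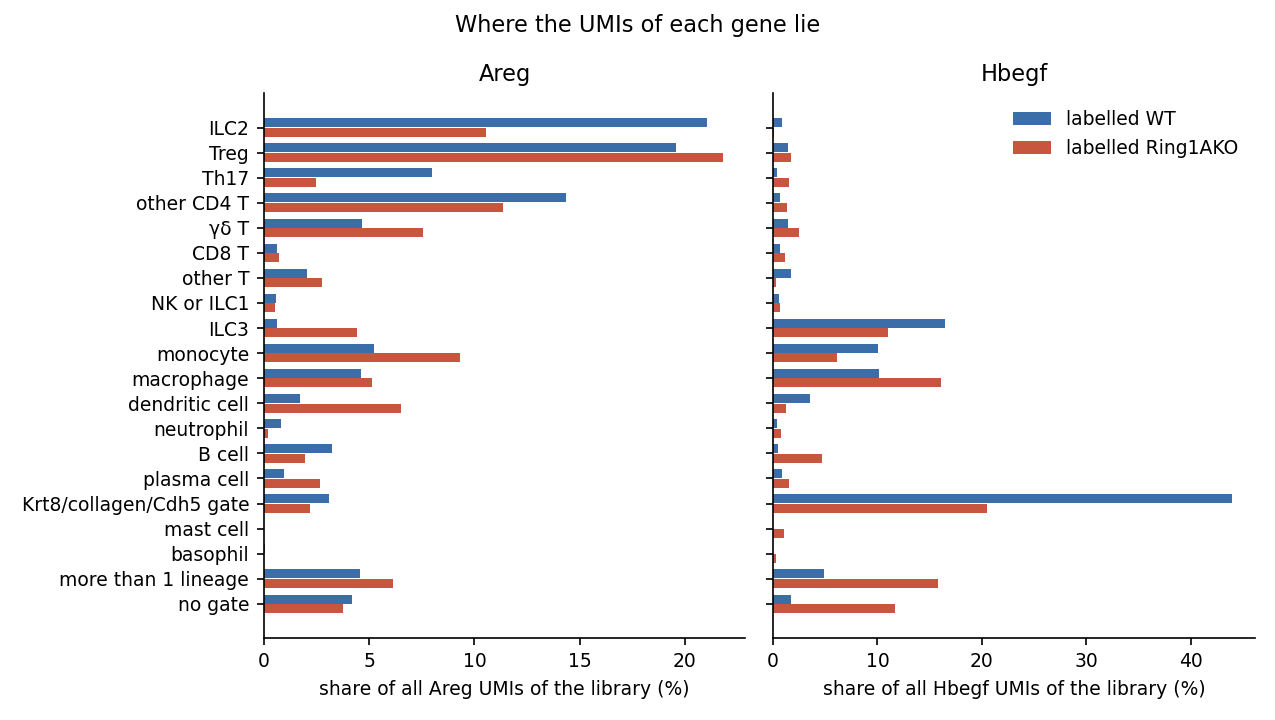
Share of all Areg UMIs (left) and all Hbegf UMIs (right) of a library in each of 20 classes, in percent, labelled WT in blue and labelled Ring1AKO in red. The ILC2 share of Areg is 21.1% against 10.5%, and the share of Hbegf in the class of Krt8, collagen and Cdh5 is 43.9% against 20.5%.

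Among Treg, Areg was split by receptors and factors of the tissue-resident state, and Klrg1 was the one of those named here with intervals apart in both libraries. After thinning, Treg labelled WT with a UMI of Il1rl1, the IL-33 receptor, had 1786 CPM (1405 to 2238) in 42 barcodes and those without had 910 CPM (771 to 1067) in 167. Labelled Ring1AKO, these levels were 844 CPM (556 to 1228) in 32 barcodes and 749 CPM (632 to 880) in 195, whose intervals overlapped. With Klrg1, a receptor of differentiated Treg, the levels were 2148 CPM (1631 to 2777) against 929 CPM labelled WT and 1333 CPM (886 to 1927) against 704 CPM labelled Ring1AKO. A split by Gata3 gave 952 against 1120 CPM labelled WT and 1211 against 672 CPM labelled Ring1AKO. A split by Il18r1, the IL-18 receptor, gave 1088 against 1086 CPM and 1083 against 724 CPM, with overlapping intervals in both libraries.

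An immediate-early list of 13 genes, among them Fos, Jun and Egr1, which report recent stimulation and also the handling of tissue, was at 7290 CPM in Treg labelled WT and at 6280 CPM in Treg labelled Ring1AKO (log2 ratio -0.21). Its part in the Areg difference was not tested. Treg labelled WT with 5 or more UMIs of the list after thinning had 1338 CPM (1163 to 1531) of Areg against 327 CPM (190 to 523) in the others, and those labelled Ring1AKO had 778 CPM (651 to 922) against 714 CPM (510 to 973). In ILC2 the list was at 12893 and 15205 CPM, in Th17 cells at 6891 and 9477 CPM and in monocytes at 11653 and 12142 CPM, so in ILC2 and Th17 cells the list was higher where Areg was lower.

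Of 15 receptors and cytokines listed as inducers of Areg, 11 reached 20 UMIs in the Treg gate, and 5 of these, Il1rl1, Il18r1, Il18rap, Ptger4 and Tnfrsf1b, were at least 1.5-fold lower labelled Ring1AKO and 0 higher. Il1rl1 was at 451 CPM labelled WT and 170 labelled Ring1AKO, a log2 ratio of -1.41 (-1.60 to -1.23), and Il18r1 at 191 and 78.9 CPM, a log2 ratio of -1.27 (-1.55 to -1.0). Its partner chain Il18rap was at 81.0 and 27.2 CPM and the prostaglandin receptor Ptger4 at 60.1 and 26.3 CPM. Of the tissue Treg factors, Gata3 was at 338 and 189 CPM, Rora at 1116 and 582 CPM, and Ikzf2, which encodes Helios, at 1152 and 566 CPM. Batf went the other way, from 172 CPM labelled WT to 258 CPM labelled Ring1AKO. Of the 49 genes listed as ligands, receptors, sheddases, partners, inducers or tissue factors, 29 reached 20 UMIs in the Treg gate. There 12, Areg itself among them, were at least 1.5-fold lower and 4 at least 1.5-fold higher. The shares among all 8753 genes of 20 UMIs were 21.0% lower and 16.0% higher.

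ILC2 did not share the lower IL-33 receptor, although Il1rl1 and Il17rb were themselves among the genes that set the ILC2 gate. Il1rl1 was at 379 CPM labelled WT and 504 labelled Ring1AKO, a log2 ratio of 0.41 (0.19 to 0.63), while the IL-25 receptor Il17rb was at 627 and 393 CPM, a log2 ratio of -0.68 (-0.90 to -0.46). Of 27 listed genes with 20 UMIs there, 4 were at least 1.5-fold lower and 2 higher, against 21.5% and 12.2% of 6721 genes. Areg in ILC2 labelled WT was higher in barcodes with Il2ra, the high-affinity chain of the IL-2 receptor, at 2163 CPM (1746 to 2650) against 1179 CPM (1015 to 1363). Labelled Ring1AKO it was at 1625 CPM (1214 to 2131) against 1048 CPM (840 to 1291), where the intervals overlapped. With Gata3 it was 1609 against 1124 CPM and 1438 against 923 CPM.

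In monocytes the cyclic AMP receptors differed among themselves. Ptger2 was at 11.1 CPM labelled WT and 27.1 labelled Ring1AKO, a log2 ratio of 1.28 (0.76 to 1.79), and Adora2a at 57.0 and 86.4 CPM, a log2 ratio of 0.60 (0.34 to 0.86), while Ptger4 was at 66.8 and 45.6 CPM, a log2 ratio of -0.55 (-0.88 to -0.23). The sheddases Adam17 and Adam10 were at 133 and 77.4 CPM and at 68.4 and 43.2 CPM. Of 29 listed genes, both members included, 10 were at least 1.5-fold higher and 3 lower, against 8.07% and 22.2% of 9407 genes. In macrophages 8 of 27, with both members among the 8, were at least 1.5-fold higher and 1 lower, against 11.2% and 15.2% of 8408 genes.

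Hbegf (ENSMUSG00000024486, GRCm38 chr18:36504927-36515805, reverse strand, protein-coding) had 858 UMIs labelled WT and 796 labelled Ring1AKO, and most lay outside the gates rich in Areg. Its highest level was in barcodes with Krt8, Col1a1, Col3a1, Dcn or Cdh5, which are epithelial, stromal or endothelial genes, although the sort was for CD45+ cells. This class of 56 and 43 barcodes had 439 CPM (396 to 486) labelled WT and 365 CPM (311 to 425) labelled Ring1AKO, and held 43.9% and 20.5% of all Hbegf UMIs. Without the top barcode of each library the levels were 351 and 225 CPM, since 108 and 69 UMIs lay in 1 barcode. The log2 ratio of -0.27 (-0.54 to 0.0011) held its sign under 8 of 12 alternatives and ran from -0.64 to 1.54, so no direction is given for this class. Barcodes of more than 1 lineage held 4.90% and 15.8% of Hbegf UMIs, and those of no class 1.75% and 11.7%.

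ILC3, innate lymphocytes set by a list of marker genes that includes Il23r and Il22, had the highest Hbegf level of the lymphoid gates. It was at 245 CPM (206 to 289) in 77 barcodes labelled WT and 131 CPM (105 to 162) in 92 labelled Ring1AKO, a log2 ratio of -0.90 (-1.30 to -0.50), with 9.66% of 1956 genes at least 1.5-fold lower. No single ILC3 barcode held more than 16 Hbegf UMIs. The share of ILC3 with Hbegf was 51.9% and 34.8% at median depths of 7101 and 6787 UMIs. Thinned to 2000 UMIs it was 27.3% and 17.4%, and thinned to 1000 UMIs 14.3% (7.35 to 24.1) and 14.1% (7.74 to 23.0). Of the 15 receptors and cytokines listed as inducers of Areg, 8 reached the minimum UMI count for listed genes in ILC3. Among these, 2 were at least 1.5-fold lower labelled Ring1AKO and 2 at least 1.5-fold higher, an even split. The share of all genes at that minimum was not computed for ILC3, so no direction is read from these counts. Among genes of at least 100 UMIs there, 9.66% were lower and 6.54% higher. The lower inducers were Il18r1, at 366 and 206 CPM, and Ptger4, at 52.1 and 19.4 CPM, and the higher ones are not named here.

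**Figure D5:**
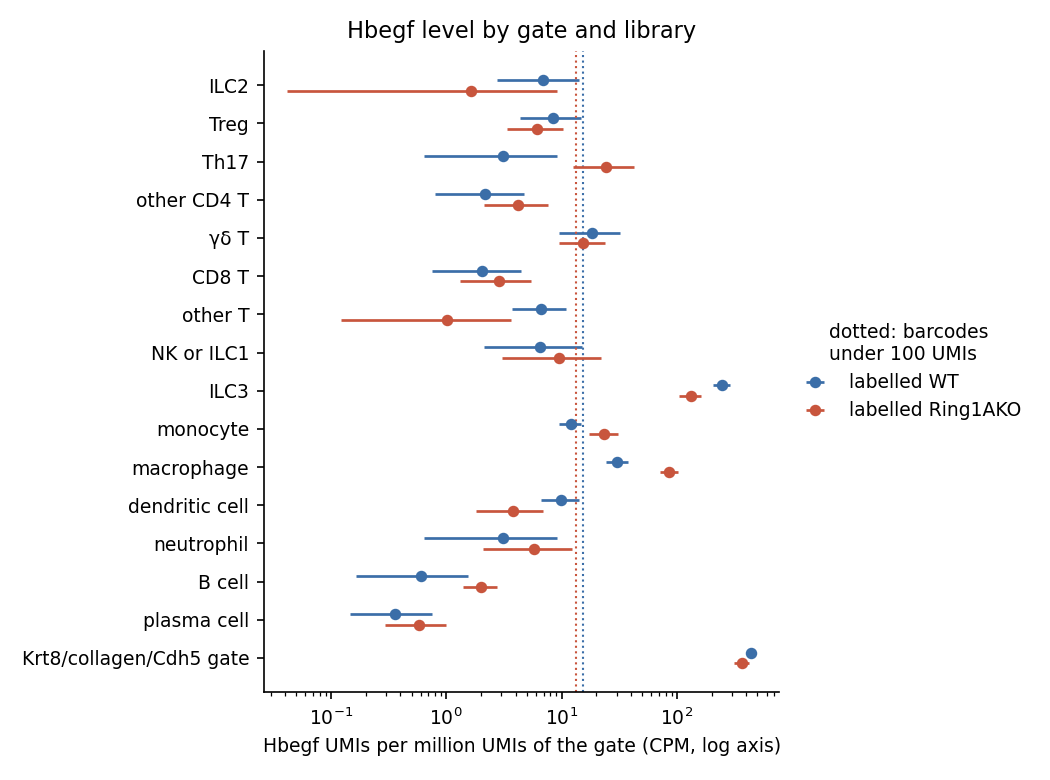
Hbegf level in 16 classes of barcode, in CPM on a log axis, labelled WT in blue and labelled Ring1AKO in red, with exact Poisson 95% intervals. Dotted lines mark Hbegf in barcodes under 100 UMIs, at 15.4 and 13.3 CPM. ILC3 and the class of Krt8, collagen and Cdh5 stand highest, followed by macrophages.

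Macrophages had 30.5 CPM (24.4 to 37.6) of Hbegf labelled WT and 85.2 CPM (71.1 to 101.3) labelled Ring1AKO, a log2 ratio of 1.48 (1.08 to 1.89). The thinned share of macrophages with Hbegf was 3.28% (1.65 to 5.80) and 9.16% (5.90 to 13.4). Macrophages with Tnf, the inflammatory cytokine, had 82.2 CPM (30.2 to 179) against 30.5 CPM (13.2 to 60.2) labelled WT, where the intervals overlapped, and 262 CPM (152 to 419) against 64.5 CPM (33.3 to 113) labelled Ring1AKO. Those with the chemokine Ccl4 had 59.8 against 19.9 CPM and 156 against 51.5 CPM, with overlapping intervals in both libraries. Monocytes had 12.0 CPM (9.6 to 14.8) and 23.3 CPM (17.2 to 30.8), a log2 ratio of 0.96 (0.42 to 1.48).

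Dendritic cells went the other way for Hbegf, with 9.9 CPM (6.7 to 14.1) labelled WT and 3.8 CPM (1.8 to 6.9) labelled Ring1AKO. Of the 30 UMIs labelled WT, 20 lay in 1 barcode, and without barcodes of 4000 or more genes the log2 ratio of -1.40 turned to 0.085. ILC2 had 7 Hbegf UMIs labelled WT and 1 labelled Ring1AKO, and Treg 12 and 14. Over all barcodes 46 of 774 with Areg labelled WT and 48 of 752 labelled Ring1AKO also had Hbegf. Mast cells labelled Ring1AKO had 8 Hbegf UMIs in 3 of 22 barcodes.

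Hbegf was low in B cells, at 0.61 CPM (0.17 to 1.56) labelled WT and 2.0 CPM (1.4 to 2.7) labelled Ring1AKO, and lowest in plasma cells, at 0.36 CPM (0.15 to 0.75) and 0.58 CPM (0.30 to 1.01). Library-wide Hbegf was at 13.9 CPM (13.0 to 14.8) and 11.5 CPM (10.7 to 12.4), a log2 ratio of -0.27 (-0.41 to -0.13). With class sizes exchanged first, they gave a log2 ratio of -0.63 and the levels then 0.37. With levels exchanged first, they gave 0.39 and the class sizes then -0.66.

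For Areg labelled WT the order of the levels ran ILC2, Treg, then Th17 and γδ T cells, whose intervals overlapped, then other CD4 T cells and the class of Krt8, collagen and Cdh5. From barcodes of no class at 144 CPM to B cells at 36.7 CPM each class overlapped the next, and CD8 T cells and plasma cells, at 3.6 CPM, stood apart below. A single B cell barcode held 134 of the 241 UMIs, and without it B cells fell within the interval of CD8 T cells. Labelled Ring1AKO, ILC2 and Treg were followed by 6 classes that each overlapped the next, from ILC3 at 457 CPM to other CD4 T cells at 302 CPM, monocytes among them. Macrophages at 237 CPM and dendritic cells at 169 CPM came next, each apart from its neighbours. ILC3 labelled Ring1AKO, however, had 209 of 306 UMIs in 1 barcode, and without it their level lay below both. The class of Krt8, collagen and Cdh5 labelled Ring1AKO had all 151 of its UMIs in 1 barcode. For Hbegf the class of Krt8, collagen and Cdh5, then ILC3, then macrophages led in both libraries (macrophages labelled WT overlapped γδ T cells at 18.2 CPM).

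Other ligands of the family were seen over all barcodes at 12.9 and 9.3 CPM for Ereg and at 25.6 and 10.5 CPM for Nrg1, whose log2 ratio was -1.28 (-1.41 to -1.15). Within monocytes Nrg1 was at 115 and 102 CPM, a log2 ratio of -0.18 (-0.40 to 0.04). Tgfa had 20 and 26 UMIs, Btc 27 and 30, Epgn 1 and 1 and Nrg3 none. The class of Krt8, collagen and Cdh5 also held Areg, at 268 CPM (234 to 305) and 338 CPM (286 to 396), although all 151 UMIs labelled Ring1AKO lay in 1 barcode. Of the receptors, Egfr had 74 and 36 UMIs over all barcodes and Erbb4 none.

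The genes most like Areg over the levels of 16 classes in both libraries were Dst, with a Pearson r of 0.82, Acot11 (0.77), Tent5a (0.77), Lxn (0.76) and Egln1 (0.75), of 11260 genes compared. For Hbegf they were Pdgfrb (0.90), Acvr1 (0.86), Phlda1 (0.85), Hk2 (0.85) and Selenop (0.85). Areg and Hbegf had an r of 0.38 with each other. These values rest on 32 points, pairs of which share a library or a class, and are a description.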

How the data were processed

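Single-cell 3′ RNA-seq was available for 2 libraries, each of 5 pooled mice. The deposited matrices held raw UMI counts for all barcodes, made by the authors with Cell Ranger. The sources differ on its version and on the genome: the submitters' processing notes name Cell Ranger 6.0.2 and mm39, and the file headers and the study's methods name others, so feature IDs were used for identity (32150 of 32228 in GENCODE vM21). How multi-mapped reads were treated is not given in the sources used here. Classes were set by summed UMIs of marker genes with fixed minima, for example at least 3 UMIs and 300 CPM of Cd3d, Cd3e and Cd3g for T cells and 1 UMI of Foxp3 for Treg among them. Barcodes of more than 1 lineage were kept apart as possible doublets (258 and 366), and no doublet caller was run. Levels were summed UMIs over total UMIs (CPM) with exact Poisson 95% intervals, shares had exact Clopper-Pearson intervals, and ratios the exact conditional interval. UMIs of 1 barcode are not independent, so intervals cover counting error only. For shares of positive barcodes each barcode was thinned to 1000 UMIs. Background shares used a 1.5-fold limit with 1 UMI added for genes of at least 100 UMIs, and no UMI added for those of at least 20. Named genes were Areg, Hbegf, the listed pathway and immediate-early genes and the 5 genes most like each member over gate-by-library levels, with at least 200 UMIs and at least 30 barcodes per gate. Clusters, an alternative, came from Leiden at resolution 3 on 40 components of 2000 genes and were named by the gate of at least 40% of their barcodes. Scripts were tested on simulated data. Members and lists were chosen with earlier results of these data known. Computation used Python 3.11.15 with numpy 2.4.6, scipy 1.17.1 and pandas 2.3.3. Protein sequences were not used here. The values of 1 gene of the marker and pathway lists are not reported here.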

Additional observations from a re-analysis of the deposited data

Results flagged for a closer look

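The direction of Areg differed between classes, a difference that was not tested because each genotype had 1 library. The log2 ratio, Ring1AKO over WT as labelled, was -0.34 in ILC2, -0.62 in Treg, -0.83 in Th17, -0.34 in other CD4 T and -0.37 in γδ T cells, and 2.5 in monocytes, 0.98 in macrophages and 2.01 in dendritic cells. Lymphoid and myeloid classes did not split cleanly. The log2 ratio was 2.46 in ILC3 and 0.52 in T cells with neither CD4, CD8 nor γδ markers, and -2.10 in neutrophils and -2.34 in B cells. Several of these values rest on few barcodes. In ILC3 1 barcode held 209 of the 306 UMIs labelled Ring1AKO, and in B cells 1 held 134 of the 241 labelled WT. Neutrophil Areg came from 7 and 5 barcodes. Under alternatives the B cell value ran from -2.94 to -0.59. The signs in other CD4 T, γδ T and dendritic cells changed under some alternatives given below. Hbegf likewise had -0.90 in ILC3 against 1.48 in macrophages and 0.96 in monocytes, also untested.

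Barcodes under 100 UMIs, which belong to no class, held both transcripts. Areg was at 88.6 CPM in those labelled WT and 87.2 CPM in those labelled Ring1AKO, and Hbegf at 15.4 and 13.3 CPM.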

How the results depend on the processing

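No paired analysis was possible because there was 1 library per genotype. Of 267 values recomputed under alternatives, 192 stayed within the counting interval of the value reported, 69 moved past it and 6, of those whose interval excluded 0, changed direction. Hbegf stayed within it in ILC3 and macrophages under all 12. Leaving out the 1 barcode with the most UMIs per gate and library was chosen after seeing the data. With clusters as classes, log2 ratios of Areg were -0.47 in Treg, -1.69 in Th17, 2.29 in monocytes, 0.37 in macrophages and -0.24 in dendritic cells. The Cd209a cluster, at 39.8% dendritic barcodes, stayed unnamed. A named dendritic cluster, led by Cst3 and Xcr1, held 146 Areg UMIs labelled WT, 4 of them in barcodes of the dendritic gate. The ILC2 and Treg share of Areg UMIs was then 54.1% labelled WT and 37.7% labelled Ring1AKO, and the myeloid share labelled Ring1AKO 15.3%. Stricter marker thresholds gave -0.47 in ILC2, -0.79 in Treg and -1.86 in Th17, and ILC2 and Treg shares of 37.8% and 25.9%. Without barcodes of 4000 or more genes, Treg were at -0.42, monocytes at 2.30 and dendritic cells at 1.64, the ILC2 and Treg share labelled WT was 45.3% and the myeloid share labelled Ring1AKO 22.3%. The mean of barcode CPM gave -1.11 in Th17 and 2.12 in monocytes. Without the 1% of barcodes with the most Areg, Th17 were at -0.58, monocytes at 2.90, macrophages at 1.39 and dendritic cells at 2.36. With up to 10% mitochondrial UMIs, the shares labelled Ring1AKO were 30.9% and 19.6%. Other CD4 T cells turned to 0.21 with stricter thresholds and 0.072 with clusters, γδ T cells to 0.37 without barcodes of 4000 or more genes and 0.67 by the mean of barcode CPM, and Hbegf in dendritic cells to 0.085 without those barcodes. The causes were not tested.

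Positive shares were higher at greater depth by construction. Areg in Treg was at 43.1% and 36.6% thinned to 2000 UMIs and 59.3% and 53.7% unthinned, Areg in monocytes at 8.11% and 14.2% unthinned, and Hbegf in macrophages at 12.5% and 18.7% unthinned.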
